A study of Mus musculus with 16 samples.

Results

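Open chromatin was followed at Wnt5a, Cdc42 and 8 further genes of Wnt signalling in mouse haematopoietic stem cells (HSCs) by ATAC-seq, in which a transposase cuts and tags accessible DNA. The members were the open regions whose nearest protein-coding gene was Wnt5a, Ror2, Ryk, Cdc42, Fzd4, Fzd7, Lef1, Tcf7, Axin2 or Ctnnb1, within 100 kb of the middle summit of the peaks in the region. There were 37 such regions among 33773, each called in at least 2 of 16 libraries. The libraries formed 4 groups of 4. Old post and young post held HSCs recovered from the pooled marrow of 5 lethally irradiated young BJ recipients, 3 months after transplantation of 1000 HSCs of old or young B6 donors together with 300000 Sca-1 depleted BJ helper marrow cells. Old pre and young pre held HSCs of the same donors taken before transplantation. The labels give male sex throughout. An old donor was a single animal of 24 months, and a young donor a pool of 3 to 4 animals of 8 to 12 weeks. Each library came from 10000 sorted cells, and libraries that share an age and a number stem from the same donor before and after transplantation. Whether the sort after transplantation used a marker that tells donor from recipient cells is not in the labels, so the share of donor cells in the post libraries is unknown.

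Wnt ligands act through 2 broad branches. In the canonical branch a ligand binds a Frizzled receptor, beta-catenin (Ctnnb1) escapes a destruction complex scaffolded by Axin proteins, and it joins the DNA-binding factors Lef1 and Tcf7 to switch on targets such as Axin2. In the non-canonical branch Wnt5a signals through Ror2, Ryk or Frizzled receptors to small GTPases such as Cdc42, which sets cell polarity. In mouse HSCs a rise of Wnt5a and of Cdc42 activity with age is known from earlier work.

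The starts of 4 of these genes are shown because they span the range from open in every library to open in some. RefSeq sequences on build GRCm38.p6 were used, from 250 bases before the gene start to 50 after it, 5′ to 3′ on the strand of the gene. Capitals mark CTTTGA or CTTTGT on either strand, the core letters bound by Lef1 and Tcf7. No other motif was searched.
Fzd7 (chr1:59481897-59482196, plus strand): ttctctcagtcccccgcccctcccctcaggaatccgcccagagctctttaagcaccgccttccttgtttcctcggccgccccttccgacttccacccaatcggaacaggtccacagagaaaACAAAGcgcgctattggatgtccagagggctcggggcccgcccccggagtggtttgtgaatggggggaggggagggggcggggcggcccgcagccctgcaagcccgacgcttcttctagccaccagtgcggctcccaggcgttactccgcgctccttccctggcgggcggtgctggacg
Fzd4 (chr7:89404116-89404415, plus strand): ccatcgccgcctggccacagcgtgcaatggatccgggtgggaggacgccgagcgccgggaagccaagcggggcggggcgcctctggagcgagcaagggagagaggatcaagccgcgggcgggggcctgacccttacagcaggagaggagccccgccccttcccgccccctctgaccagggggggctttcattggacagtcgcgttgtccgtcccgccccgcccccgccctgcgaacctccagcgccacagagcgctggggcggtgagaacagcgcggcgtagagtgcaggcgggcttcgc
Cdc42 (chr4:137357710-137358009, minus strand): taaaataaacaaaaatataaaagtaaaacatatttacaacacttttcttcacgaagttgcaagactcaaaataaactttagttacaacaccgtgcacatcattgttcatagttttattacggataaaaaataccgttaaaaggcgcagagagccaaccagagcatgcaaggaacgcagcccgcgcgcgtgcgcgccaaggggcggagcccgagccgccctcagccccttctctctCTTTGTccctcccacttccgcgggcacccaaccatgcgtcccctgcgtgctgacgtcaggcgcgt
Axin2 (chr11:108920099-108920398, plus strand): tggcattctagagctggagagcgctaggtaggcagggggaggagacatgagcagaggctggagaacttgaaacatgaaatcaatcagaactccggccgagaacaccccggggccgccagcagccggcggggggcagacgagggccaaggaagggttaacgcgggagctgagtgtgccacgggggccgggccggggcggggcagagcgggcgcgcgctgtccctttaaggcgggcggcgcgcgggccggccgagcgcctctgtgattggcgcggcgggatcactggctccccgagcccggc
The core occurred once in the Fzd7 window, where its first base lay 129 bases before the gene start, and once in the Cdc42 window, 15 bases before the start. It was not found in the Fzd4 or Axin2 window. Of 21045 windows of 300 bases at starts of protein-coding genes, 28.3% held the core.

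Every library has a peak list of its own, and the value compared is whether a region was called in a library. The lists differed in length: 14008 to 31003 peaks for old post, 30784 to 32530 for young post, 5687 to 30520 in old pre and 9614 to 28298 in young pre. Sequencing depth is unknown, and a region without a peak is read as not called, not as closed. Transposition days 4 to 6 held the post libraries and days 1 to 3 the pre libraries, so stage and day cannot be told apart. Old pre 1 and 2 were the only libraries of day 1, young pre 4 that of day 3, and old post 1 and 2 those of day 4. Regions near 11 of 12 HSC markers were called, Tek being the exception, and old post, young post, old pre and young pre libraries called 18 to 60, 57 to 59, 10 to 67 and 15 to 56 of their 72 regions. Among markers of other blood cells, 5 of 6 erythroid genes had a region, as did 3 of 8 of granulocytes or monocytes, 2 of 8 of T or NK cells and 2 of 6 of B cells. Of the 7 erythroid regions, old post libraries called 2 to 7 and young post ones all 7, against 2 to 6 in old pre and 2 to 6 in young pre. Of the 5 regions of granulocytes or monocytes, old post libraries called 2 to 5 and young post ones all 5, against 0 to 4 in old pre and 2 in young pre. Of the 8 regions of T or NK cells, old post libraries called 5 to 8 and young post ones 7 to 8, against 3 to 8 in old pre and 4 to 7 in young pre. Of the 2 regions of B cells, old post libraries called 0 to 2 and young post ones 1 to 2, against 0 to 1 in old pre and 0 to 2 in young pre. Cd3e, Cd4, Cd8a, Ms4a1, Elane, Mpo and Ly6g had no region. The part of other cells in the results was not tested.

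Of the 37 regions, old post 1 to 4 called 21, 28, 28 and 9. Young post 1 to 4 called 30, 26, 28 and 30. Old pre 1 to 4 called 27, 31, 14 and 3, whereas young pre 1 to 4 called 29, 16, 17 and 7. The order of libraries was close to that of their list lengths, and the groups overlapped. The 37 regions were called less often than regions in general: the share called was below that of all 33773 regions in 15 of 16 libraries, the exception being old pre 2 (83.8% against 83.6%). Of the 37, 3 were called in all 16 libraries (8.11%), against 15.6% of all regions, and the median region was called in 10 libraries, against 12. Expected calls came from the odds of a call in each library, fitted over all regions, and the total calls of each region. They were 24.8, 28.6, 11.4 and 3.07 in old pre 1 to 4 and 32.1, 29.8, 30.7 and 31.4 in young post 1 to 4. In old post and young pre 19.3, 26.8, 29.8 and 8.64 and 26.6, 17.4, 16.5 and 7.02 were expected. Calls were above expectation in old post 1, 2 and 4, old pre 1 to 3 and young pre 1 and 3, and below it in the other libraries, all 4 of young post included. The members were narrower than regions in general, with a median width of 547 bp against 830 bp. Of the 37, 10 lay within 1 kb of a gene end, 14 further inside a gene and 13 outside genes.

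**Figure D1:**
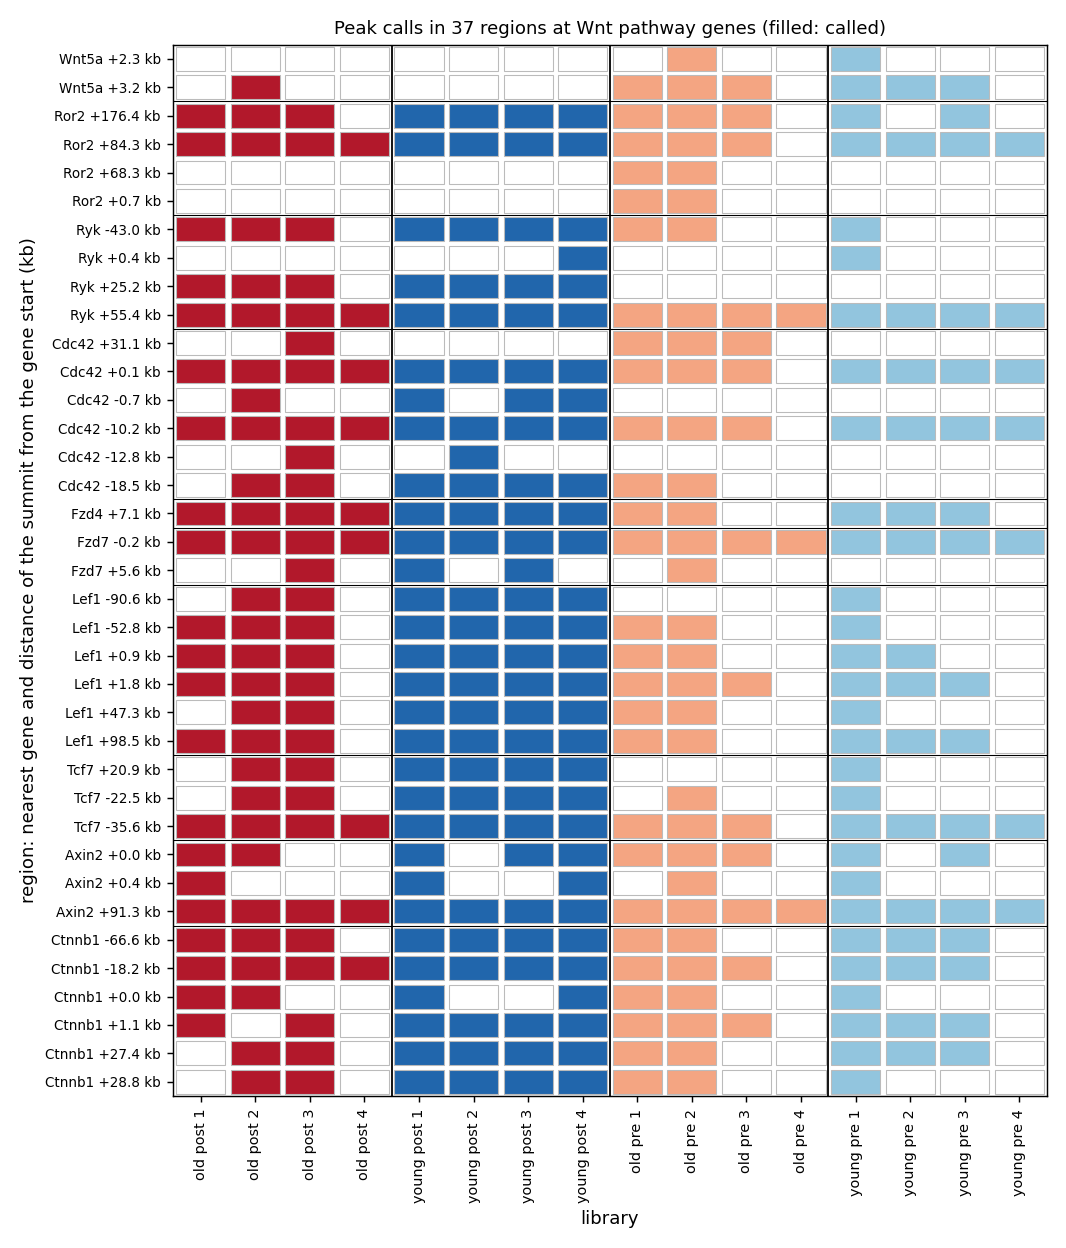
Peak calls (filled squares) in the 37 regions, down the page by gene, in the 16 libraries, across by group. Fzd7 -0.2 kb, Ryk +55.4 kb and Axin2 +91.3 kb are filled in all 16 columns, and Wnt5a +3.2 kb in 1 post and 6 pre columns.

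**Figure D2:**
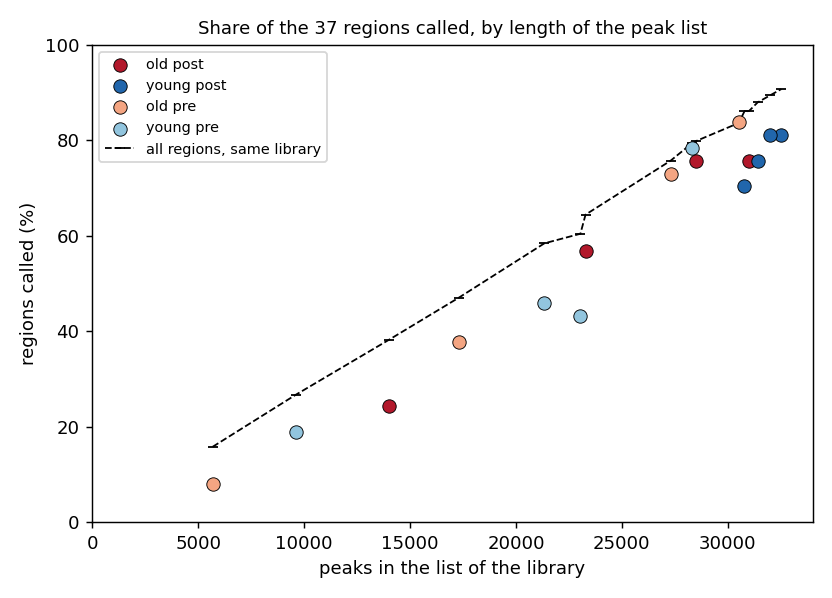
Share of the 37 regions called in each library (points, % on the vertical axis) against the number of peaks in its list, with the share of all 33773 regions in the same libraries as a dashed line. The points follow the list length and lie below the line in 15 of 16 libraries.

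Wnt5a, the ligand, had 2 regions, both inside the gene. Regions are named here by the distance of their summit from the gene start, which for Wnt5a is the gene end with the lower coordinate because the promoter table used here has no entry for it. Wnt5a +3.2 kb (chromosome 14, 28507074 to 28508016) had a peak in 1 of 8 post libraries, against 6 of 8 pre libraries. The post library was old post 2, and the pre libraries were old pre 1, 2 and 3 and young pre 1, 2 and 3. The missing pre calls, old pre 4 and young pre 4, are the shortest lists of all. All 4 young post lists, with at least 30784 peaks each, lacked it.

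The deposited area score of a peak, which sums the caller's significance over its bases and starts at 200, was 207.1 at Wnt5a +3.2 kb in old post 2. It was 409.0, 723.4 and 244.5 in old pre 1 to 3 and 463.0, 215.9 and 303.0 in young pre 1 to 3. These scores are not normalised between libraries, and they describe a weak peak, at 43.4% to 98.1% of its own list when the list is ranked from the highest area down. The 7 summits lay within 7 bp of each other.

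Over both ages, Wnt5a +3.2 kb fell after transplantation: its post calls fell by 3.96 relative to those that the odds of a call in each library gave (exact conditional test within donors, p = 3.02e-07, Benjamini-Hochberg adjusted p = 0.000183, n = 8 donors). In 5 donors a single library of the pair called it, the pre library each time, and in the others both did (old 2) or neither did (old 4 and young 4). It was the only member called among 7 tested. Over all regions 19 of 4838 tested were called lower in post (0.393%) and none higher (0.0%). At an unadjusted p under 0.05 the shares were 2.34% lower and 0.0% higher. Yet 107 of 33773 regions had calls in at least 7 of 8 post and 0 of 8 pre libraries. With the weights of the mostly longer post lists, this test could hardly call a gain in post. The post list was the longer in 6 of 8 donors, old 1 and old 2 being the exceptions. With equal weights for all libraries, the call was not made and the adjusted p was 0.129 (range over 27 alternatives with a value 4.05e-05 to 0.129). No call was possible under that setting. In this test 5 donors that differ between stages, even if all in the same direction, then give an unadjusted p above 0.05. The call needs at least 5 such donors, so leaving out either library of old 1, old 3 or young 1, 2 or 3 leaves the region untested. Without the donor strata, the exact conditional test passed it with each of the 16 libraries left out in turn (adjusted p 4.05e-05 to 0.0101). These 16 fits were chosen after seeing the data, and they ignore which libraries share a donor. They are among the 27 alternatives, and the lower end of that range comes from them. With peaks of area 400 or more Wnt5a +3.2 kb was left in old pre 1 and 2 and young pre 1, too few to test. With lists shortened to 14008 peaks the region was in fewer than 2 libraries.

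Within young donors Wnt5a +3.2 kb had 0 of 4 possible calls in post, against 3 of 4 in pre, and within old donors 1 of 4, against 3 of 4. Neither was tested at 4 donors, where all 4 had to differ between stages. With no filter on the number of such donors, the exact conditional test gave an adjusted p of 0.0243 in young and 0.566 in old, and without donor strata 0.0017 in young and 0.498 in old. The call was thus not made in old donors alone, and the difference between the ages was not tested. Before transplantation the ages had the same number of calls, and over both stages 4 of 8 old libraries had it, against 3 of 8 young ones (exact conditional test, p = 0.165, adjusted p = 1.0). The second region, Wnt5a +2.3 kb, had no peak in post and 2 in pre, in old pre 2 with an area of 445.5 and in young pre 1 with 202.0, and was too rare to test. Of 24 regions at 5 of 6 marker genes of endothelial and stromal cells, old post libraries called 8 to 20 and young post 20 to 22, against 2 to 18 in old pre and 5 to 18 in young pre. Their part in the result was not tested. The mean calls per region of Wnt5a, beyond those expected, were most like those of Elavl4, Peg3 and Eif3d (Pearson r of 0.942, 0.893 and 0.879 over 16 libraries, among 6121 genes with at least as many varying regions). These are descriptions over libraries that share their list lengths.

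**Figure D3:**
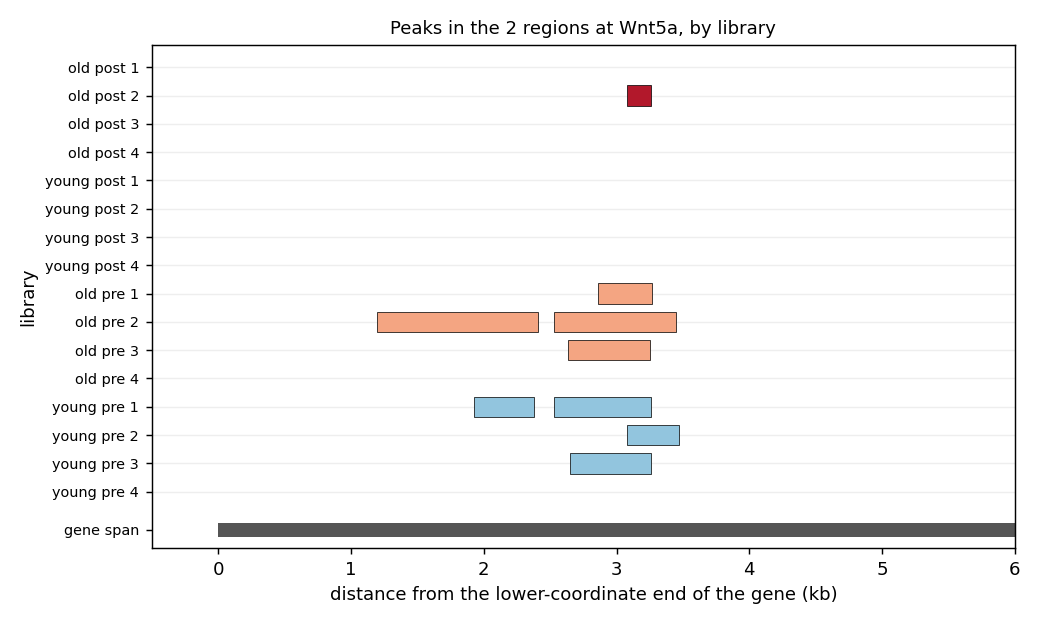
Extent of each peak (bars) in the 2 regions at Wnt5a by library (rows), against the distance from the lower-coordinate end of the gene in kb, with the gene span at the bottom. Bars stand in old post 2 alone among the post libraries, against 6 pre libraries at 3.2 kb.

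Ror2, a receptor tyrosine kinase that binds Wnt5a, had 4 regions. Ror2 +84.3 kb, in the middle of the gene, was called in 15 of 16 libraries, all but old pre 4. Ror2 +176.4 kb, at the far gene end, was called in 3 of 4 old post, 4 of 4 young post, 3 of 4 old pre and 2 of 4 young pre libraries. Ror2 +0.7 kb (chromosome 13, 53284694 to 53285731), just inside the gene start, and Ror2 +68.3 kb (53217623 to 53217915) each had a peak in 2 of 8 old libraries and in no young one. Both calls came from old pre 1 and 2, the pair transposed on the day that held no young library, with areas of 375.8 and 379.7 at +0.7 kb and 235.2 and 215.7 at +68.3 kb. Age and day cannot be told apart for these regions, and calls in 2 libraries were too few to test.

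Ryk, a Wnt receptor related to tyrosine kinases, had 1 region called in all 16 libraries, Ryk +55.4 kb, inside the gene. Ryk +25.2 kb (chromosome 9, 102860031 to 102860352) had a peak in 7 of 8 post libraries, against 0 of 8 in pre. Old post 1 to 3 had areas of 208.8, 345.0 and 369.8 there, and young post 1 to 4 had 402.3, 280.0, 417.2 and 324.1. The stages overlapped only through old post 4, the shortest post list, which lacked it. With the odds of a call in each library weighed, the excess in post was 1.66 calls (exact conditional test within donors, p = 0.0594, adjusted p = 0.905). No region tested was higher in post at an unadjusted p under 0.05 in this test. It therefore could not decide whether Ryk +25.2 kb gained calls. Regions called in at least 7 of 8 post and 0 of 8 pre libraries made up 0.317% of all regions. Ryk -43.0 kb had 7 calls in post, against 3 in pre, and Ryk +0.4 kb had 1 in each.

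Cdc42, the small GTPase, had 6 regions, and its start was open in nearly all libraries. Cdc42 +0.1 kb (chromosome 4, 137355620 to 137358099) and Cdc42 -10.2 kb (137367355 to 137368515) were each called in 15 of 16 libraries, all but old pre 4. The upstream peak had the larger area in all 15 lists: at Cdc42 -10.2 kb the area was 999.0, 1374, 1546 and 540.9 in the old post libraries, 1637, 1525, 1493 and 1649 in the young post ones, 1437, 1665 and 756.0 in old pre 1 to 3 and 1547, 1267, 1046 and 243.7 in young pre 1 to 4. In the median library it stood at 21.8% of the list from the top, against 45.9% for the peak at the start.

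Cdc42 +31.1 kb (chromosome 4, 137326243 to 137327032), inside the gene near its far end, was called in old libraries alone: old post 3 and old pre 1, 2 and 3, or 4 of 8 old against 0 of 8 young. Its areas were 298.7 in old post 3 and 613.1, 782.5 and 245.7 in old pre 1 to 3. Before transplantation it was found in 3 of 4 old libraries, against 0 of 4 young ones (exact conditional test, p = 0.0107, adjusted p = 0.466). Such a pattern, at least 3 of 4 against 0 of 4, held for 0.376% of all regions. Over both stages the excess in old was 2.63 calls (exact conditional test, p = 0.00131, adjusted p = 0.132, counting the post and pre libraries of a donor as independent). The difference thus missed the threshold in both comparisons (exact conditional test, adjusted p over alternatives of 0.294 to 1.0 before transplantation and 0.0468 to 1.0 over both stages), and it passed with old post 2 left out (adjusted p = 0.0468). Among the libraries of day 2, from both ages, old pre 3 called it, whereas old pre 4 and young pre 1, 2 and 3 did not. With day as stratum the adjusted p over both stages was 0.698. Only days that held both ages entered that test, so the calls of old pre 1 and 2 did not count in it.

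The other regions of Cdc42 leaned to the longer lists. Cdc42 -18.5 kb had 6 calls in post, against 2 in pre, with 0.04 calls more in post than the odds of each library gave (adjusted p = 1.0, exact conditional test). This test could hardly call a gain in post. Before transplantation the 2 calls of Cdc42 -18.5 kb were old pre 1 and 2, and no young pre library had it. Cdc42 -0.7 kb had 4 calls in post and Cdc42 -12.8 kb had 2, against 0 in pre for both. The genes whose mean excess of calls was most like that of Cdc42 were Rarb, Retreg1 and Dock9 (Pearson r of 0.763, 0.72 and 0.717 over 16 libraries, among 828 genes with at least as many varying regions).

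**Figure D4:**
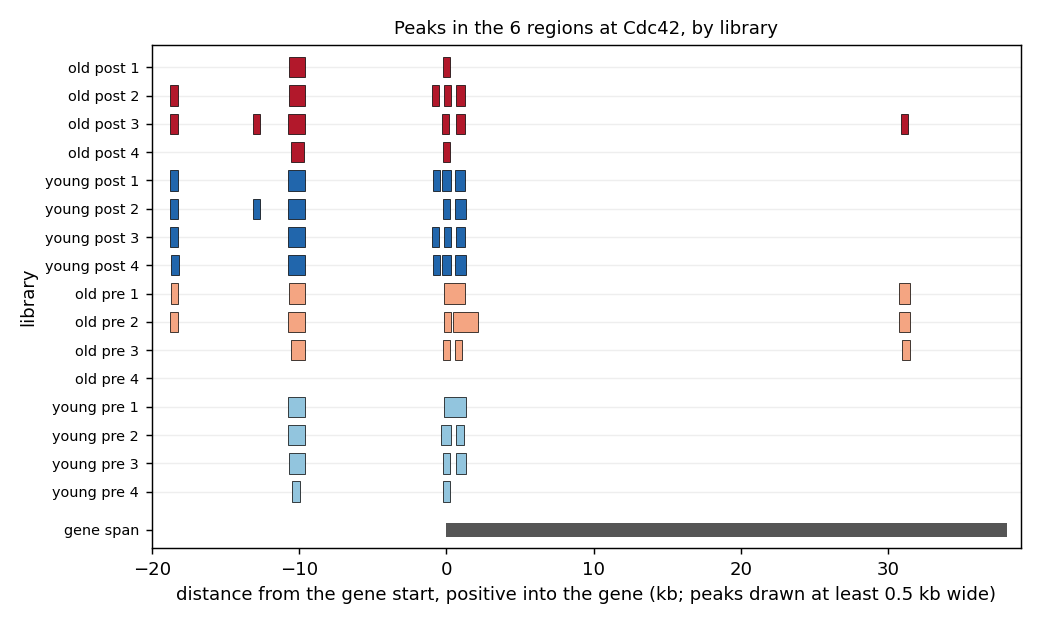
Extent of each peak (bars) in the 6 regions at Cdc42 by library (rows), against the distance from the gene start in kb, positive into the gene, with the gene span at the bottom. Peaks at the start and 10.2 kb before it stand in 15 libraries, and the peak at 31.1 kb in 4 old libraries.

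The Frizzled receptor genes held the most constant starts. Fzd7 -0.2 kb (chromosome 1, 59481174 to 59483476), over the start shown above, was called in all 16 libraries and was the strongest peak of the 37 regions. In its own list it stood at 3.01%, 3.92%, 3.85% and 5.88% from the top in old post 1 to 4, 2.74%, 3.51%, 3.08% and 2.82% in young post 1 to 4, 3.69%, 4.33%, 4.69% and 13.2% in old pre 1 to 4 and 3.47%, 6.28%, 4.47% and 5.41% in young pre 1 to 4. It was thus near the top of every list, the lowest place being in the shortest list. Fzd7 +5.6 kb was called in 3 post libraries, against 1 pre library. Fzd4 had 1 member region, Fzd4 +7.1 kb, past the far end of the gene, with a call in 8 of 8 post libraries, against 5 of 8 in pre.

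The start of Fzd4 was also called in all 16 libraries, by a region of 2075 bp (chromosome 7, 89403455 to 89405529) that is not a member. Its middle summit, 89404355, lies inside the span of Tmem135, 348 bp from the end of that gene and just outside Fzd4, so the rule gives it to Tmem135. It stood between 6.34% and 60.5% of its own list from the top, with a median of 9.23%. The count of member regions therefore understates how open Fzd4 was.

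Lef1 and Tcf7, the DNA-binding partners of beta-catenin, had 6 and 3 regions, and all 9 were called in every young post library. Calls were frequent there in general: young post 1 to 4 called 90.7%, 86.0%, 87.9% and 89.4% of all regions. For Lef1 there were 16 of 24 possible calls in old post, 24 in young post, 11 in old pre and 11 in young pre, where 15.2, 23.1, 12.0 and 11.6 were expected from the odds of each library. For Tcf7 there were 8 of 12 in old post, 12 in young post, 4 in old pre and 6 in young pre, with 7.5, 11.1, 5.7 and 5.7 expected. The expected values use each region's own total of calls, so some closeness is built in. The part of list length in the group differences was not tested. The most frequent were Tcf7 -35.6 kb in 15 libraries and Lef1 +1.8 kb in 13. Lef1 -90.6 kb and Tcf7 +20.9 kb had the same counts, 6 calls in post, against 1 in pre (0.68 calls above expected, p = 0.392, adjusted p = 1.0, exact conditional test within donors). Again the test could hardly call a gain in post.

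Axin2, a scaffold of the destruction complex and itself a target of beta-catenin, had 1 region called in all 16 libraries, Axin2 +91.3 kb, outside the gene. Its peaks had nearly fixed edges: each began at 109011601 or 109011602 and was 322 or 545 bp wide. Peaks at Ryk +55.4 kb, also called in all 16, were 318 to 1110 bp wide. Why the edges at Axin2 +91.3 kb varied so little was not tested. Axin2 +0.0 kb (chromosome 11, 108920065 to 108920549), over the start shown above, was called in 2 of 4 old post, 3 of 4 young post, 3 of 4 old pre and 2 of 4 young pre libraries. Its areas were 445.6 and 259.5 in old post 1 and 2, 356.7, 333.0 and 350.7 in young post 1, 3 and 4, 313.8, 319.4 and 239.5 in old pre 1 to 3 and 376.0 and 219.1 in young pre 1 and 3. It was weak in every group, and the groups overlapped. Long lists such as old post 3 and young post 2 lacked it while the shorter old pre 3 had it. Between the ages it did not pass before transplantation (p = 0.229, adjusted p = 0.999, exact conditional test) or after it (p = 0.413, adjusted p = 1.0), and too few donors differed between stages for the other test. Axin2 +0.4 kb had 3 calls in post, against 2 in pre.

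Ctnnb1, which encodes beta-catenin, had 6 regions and 15 of 24 possible calls in old post, 22 in young post, 14 in old pre and 14 in young pre, where 16.5, 23.2, 12.5 and 12.8 were expected. Ctnnb1 -18.2 kb was the most frequent, in 14 libraries, all but old pre 4 and young pre 4. Ctnnb1 +0.0 kb, over the gene start, was called in 7, namely 2 of 4 old post, 2 of 4 young post, 2 of 4 old pre and 1 of 4 young pre libraries, and Ctnnb1 +1.1 kb, just inside, in 12. Over both stages +0.0 kb had 4 calls in old, against 3 in young (exact conditional test, p = 0.165, adjusted p = 1.0). Ctnnb1 -66.6, +27.4 and +28.8 kb were called in 12, 11 and 9 libraries.

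Across genes, 7 of the 14 gene starts listed for 9 of the genes had a peak in some library, belonging to 6 genes. The starts of Fzd4 and Fzd7 had one in 16 libraries, Cdc42 in 15, the third listed start of Lef1 in 13, Axin2 in 10 and both starts of Ctnnb1 in 7. At Lef1 the window ran from 131112541 to 131112840 and the region ended at 131112619. The peaks there reached only the upstream edge of the window and not the start itself. Those of Ror2, Ryk, Tcf7 and the other starts of Lef1 had none in any library. Among 21045 starts of protein-coding genes 54.2% overlapped a region, and 21.6% a region called in all 16 libraries. Among the starts with a peak, neighbours in this order differed by 0 to 3 libraries, and these differences were not tested.

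**Figure D5:**
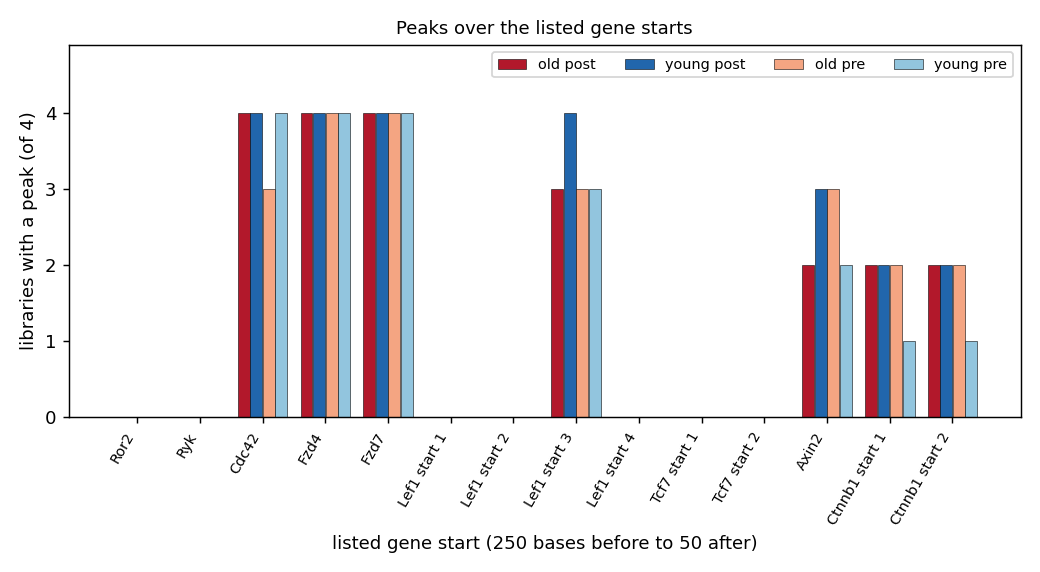
Number of libraries of 4 with a peak over each listed gene start (250 bases before to 50 after), by group. The bars of Fzd4 and Fzd7 reach 4 in every group, and Ror2, Ryk and Tcf7 have none.

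Between the ages, 0 of 13 member regions tested passed before transplantation, 0 of 5 after it and 0 of 22 over both stages by the exact conditional test. At an unadjusted p under 0.05 there was 1 of 13, 0 of 5 and 1 of 22, the Cdc42 +31.1 kb region both times, and equal weights also called none. Among all regions the test called 0.0% higher and 0.0% lower in old before transplantation, 0.465% and 0.0% after it, and 0.25% and 0.0198% over both stages. At an unadjusted p under 0.05 the shares among all regions were 1.35% higher and 0.935% lower in old before transplantation, 1.84% and 0.0% after it, and 2.64% and 1.92% over both stages. Comparing post with pre within young donors, 0 of 2 members passed, with 0 at an unadjusted p under 0.05, against 0.0% higher and 0.159% lower among all regions (unadjusted, 0.0% and 0.796%). As over both ages, this test could hardly call a gain in post. Within old donors no member was tested, and of the 4 regions tested in all 1 was called lower in post (25.0%, also when unadjusted). The comparisons share libraries and are not independent of each other.

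A wider list of 153 Wnt pathway genes and Cdc42 partners, none of them a member, was set beside these. All 153 were in the gene table, and 138 had a region, 493 regions in all. Of these, 0 of 158 tested passed between the ages before transplantation, 0 of 74 after it and 1 of 250 over both stages, and 0 of 72 between post and pre over both ages. Without adjustment, 4, 4, 10 and 0 had a p under 0.05. The ligands, receptors, secreted inhibitors, destruction complex, nuclear effectors, target genes and the planar polarity and calcium branch had 0 calls in each comparison. The region past the threshold belonged to the group of Cdc42 regulators and effectors, which had 121 regions, 63 of them tested over both stages.

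It lay inside Dock9 (chromosome 14, 121591191 to 121592152), which encodes a guanine nucleotide exchange factor that activates Cdc42. It had a peak in 7 of 8 old libraries, against 3 of 8 young ones, 2.58 calls above expected in old (exact conditional test, p = 1.13e-05, adjusted p = 0.0132, counting the post and pre libraries of a donor as independent, so that 8 libraries stand for 4 donors of each age), against 0.25% of all regions called higher in old. Its areas were 325.4, 666.5, 606.1 and 272.4 in old post 1 to 4, 426.0, 604.9 and 234.3 in young post 1, 3 and 4, and 724.3, 1138 and 299.4 in old pre 1 to 3, and no young pre library called it. All 4 old post libraries had it, including the short list of old post 4, and the ages overlapped through the young post libraries. Before transplantation alone 3 of 4 old libraries had it, against 0 of 4 young ones (exact conditional test, p = 0.0107, adjusted p = 0.466). In the exact conditional test the call was lost with transposition day as stratum (adjusted p = 1.0), with libraries paired across the ages by number (1.0), with equal weights (1.0), with peaks of area 400 or more (0.84) and with lists shortened to 14008 peaks (0.251). It was also lost without old pre 3 (0.0724) and without old post 4 (0.123), and its adjusted p ranged from 0.00566 to 1.0 over 24 alternatives. With day as stratum, only days that held both ages entered. The calls of old pre 1 and 2 and of old post 1 and 2 thus did not count there.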

How the data were processed

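ATAC-seq was done with the Omni-ATAC protocol on sorted HSCs, per the labels' protocols. Per the submitters' processing notes, FastQC, MultiQC, Trim Galore, cutadapt, Genrich, ChIPseeker and featureCounts were among the tools, on build mm10. The aligner and the settings were not given in the sources used here. Each library has 1 deposited narrowPeak list. Their area is a score, as is the column that gives it per base (checked on every peak), and the deposited -log10 p and -log10 q belong to the summit. None is normalised between libraries, so only presence was compared.

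Of 387029 peaks, 393 (0.102%) on other scaffolds were left out. Peaks overlapping by at least 1 bp were merged, regions found in 2 or more libraries were kept, and each went to the nearest protein-coding gene by summit (RefSeq, GRCm38). Groups were compared by a two-sided exact conditional test on the calls, with each library weighted by its odds of a call (Rasch model over all regions). Post against pre was tested within donors, since the series design says that both come from the same donors. Same-donor libraries correlated at -0.35 to 0.28 in their deviations from group means. P values were adjusted over all regions called in 3 to 5 of 8 or 4 to 12 of 16 libraries, or differing in at least 5 of 8 (or 4 of 4) donors, at 0.05. Each number stands for 1 old mouse or 1 young pool. The p-values measure departure from what the library weights give, with calls taken as independent, and not the spread between donors. The test was tried on simulated calls, drawn independently from the same model that the test assumes. Such calls cannot show how it behaves when libraries share a donor or a day. Named were the region nearest each gene's start or end and up to 3 more per gene by p, and further regions of the 37 were described after their values were seen. Members and gene lists were chosen with earlier results of these data known. The sequences of 9 of 10 genes were found. Python 3.11.15, numpy 2.4.6, pandas 2.3.3, scipy 1.17.1 and matplotlib 3.10.9 were used.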

Additional observations from a re-analysis of the deposited data

Results flagged for a closer look

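For the 7 regions called in at least 15 libraries, and for calls and list lengths, a single library lay far from the other 3 in 4 of 32 groups examined. Chance flags about 1 in 20 such groups. The Fzd7 -0.2 kb peak stood at 13.2% of its list from the top in old pre 4, against 3.69% to 4.69% in old pre 1 to 3. The Cdc42 -10.2 kb peak stood at 87.2% in young pre 4, against 19.2% to 26.2% in the others of its group. The Cdc42 +0.1 kb peak stood at 72.7% in old post 4, against 42.4% to 46.5% in old post 1 to 3. The Ryk +55.4 kb peak stood at 65.0% in young pre 4, against 39.3% to 41.8%. Each of these libraries has the shortest list of its group, and the part of list length was not tested.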

How the results depend on the processing

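Sequencing depth is unknown, so the odds of a call in each library stand in for it, and a region missed in the short lists of old pre 4 or young pre 4 carries little weight. Most counts over all regions moved with the settings. Regions past the threshold between the ages after transplantation numbered 24, against 0 with an area of at least 400, 0 with shortened lists, 3 with no filter, 0 with equal weights and 4 with day as stratum. Over both stages they numbered 41, against 12, 16 and 0 with an area of at least 400, shortened lists and equal weights, and 5 with day as stratum. With day as stratum, libraries of a day that held a single age did not enter. Between post and pre there were 4 in young, against 1, 8, 53 and 0 with an area of at least 400, shortened lists, no filter and equal weights. In old there was 1, against 0 with each of an area of at least 400, shortened lists and equal weights. Over both ages there were 19, against 8, 4, 69 and 0 under those 4 settings. Within 1 age equal weights could call no region, because 4 differing donors cannot give a p under 0.05 there. Leaving out 1 library gave 0 to 20 between the ages after transplantation, 2 to 65 over both stages, 1 to 47 between post and pre in young, 1 to 51 in old and 4 to 19 over both ages.

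Member regions past the threshold between post and pre over both ages numbered 1, and 0 with an area of at least 400, shortened lists or equal weights. Equal weights could not call Wnt5a +3.2 kb, where too few donors differed between stages. Leaving out 1 library gave 0 to 1, since Wnt5a +3.2 kb was then often left untested. In young the count was 0, and 1 with no filter, with 0 to 1 when a library was left out. Over both stages it was 0 to 1 between the ages, and before transplantation 0 under all 16 alternatives run. The members numbered 32, 36, 25 and 30 with at least 3 libraries, merging up to 100 bp apart, an area of at least 400 and a limit of 20 kb.

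Without the replicate block of donors, post against pre gave 66 regions in young, with 1 member, and 61 over both ages. A fit chosen after seeing the data left out each library as well and gave, over both ages, 57, 64, 71 and 60 without old post 1 to 4, 71, 61, 61 and 62 without young post 1 to 4, 39, 44, 34 and 65 without old pre 1 to 4, and 34, 46, 50 and 58 without young pre 1 to 4. Between the ages the libraries share only a number. Same-number correlations were 0.01 to 0.5 before transplantation, where 5 of 8 libraries correlated best with their own number, and -0.07 to 0.0 after it, where 0 of 8 did. With that number as a replicate block there were 4 regions after transplantation and 3 over both stages.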
